A study of Mus musculus with 6 samples.

Results

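The 50 genes described here are mouse nuclear receptors of several subfamilies around PPARA, the fatty acid receptor encoded by Ppara, together with coactivators and a corepressor that such receptors recruit. They were listed by name, 43 receptors and 7 coregulators, by no threshold on their values, though with earlier results of these data known. A gene counted as measured where a probe set was paired with that gene alone, and where a gene had several such probe sets the one of highest average signal was used. By this rule 46 of the 50 were measured, 40 receptors and 6 coregulators, among 30702 genes in all. Ppard and Esrra shared their probe sets with another gene, no probe set was named here for Nr1h2 or the corepressor Ncor1, and these 4 genes are in no comparison.

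RNA was profiled on Affymetrix arrays in mouse leukemia cells that a retrovirus had given the fusion oncogene MLL-AF9 together with green fluorescent protein (GFP). All samples carried this virus. The Ppara-/- group was leukemia from mice with both Ppara alleles disrupted, and the Ppara+/+ group was leukemia from mice with both alleles intact, with 3 arrays of each. The cells were GFP-positive marrow cells sorted from secondary transplant recipients, so they had passed through more than 1 host. The strain and age of donors and recipients were not given in the sources used here, nor was the part of Ppara that is disrupted. Mice of both genotypes had been backcrossed. Nor do the labels say whether the replicates came from separate leukemias, so the p-values cover only the spread among these samples, which may be technical.

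Nuclear receptors are transcription factors with a zinc finger DNA-binding domain and, in most members, a pocket that binds a small lipophilic ligand. PPARs, retinoic acid, thyroid hormone, vitamin D and liver X receptors bind DNA as partners of an RXR, whereas steroid receptors mostly bind as pairs of themselves. Without ligand many of them hold corepressors of the NCOR type, and with ligand they exchange these for coactivators of the NCOA family and for Mediator through its subunit MED1. In marrow, RARA is best known as the receptor through which retinoic acid drives granulocyte maturation, and NR4A1 and NR4A3 as factors whose joint loss in mice gives myeloid leukemia.

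Values are deposited log2 array signals, on which a difference of 1 is a doubling, and the number of arrays limits their precision. Negative-control probe sets gave a scale for background: their median was 4.63 to 4.81 on 4 arrays, 4.99 on Ppara-/- replicate 2 and 5.16 on Ppara+/+ replicate 1, and their 95th percentile was 7.91 to 8.23, with a mean of 8.09. These 2 arrays, with the highest negative-control medians, are called the arrays of high background here, although at the 95th percentile Ppara+/+ replicate 3 (8.22) was above Ppara-/- replicate 2 (8.20). Probe sets differ in how strongly they bind, so the signal of 1 gene is set against the controls and against itself in the other genotype. Where genes are ordered or averaged by signal, that describes array signal and not amounts of RNA. The labelled cell type was checked against its markers: 9 of 12 myeloid progenitor and leukemia markers had means above 8.09, Mpo and Itgam among them, while Kit, Cebpa and Hoxa10 did not. So did 8 of 10 mature neutrophil markers. No erythroid, B cell, T and NK cell, megakaryocyte, mast cell, basophil or eosinophil marker did, and of marrow stroma and endothelium 1 of 10 did, Pecam1. None of 10 markers of liver, fat, muscle, kidney and pancreas, tissues in which many of these receptors are studied, lay above it. Between genotypes none of these markers had an adjusted p under 0.05 in limma. In the labelled cell type 3 of 12 were higher in Ppara-/- cells without overlap (5.13% of all genes were) and 0 lower (3.62%). These were Kit (0.54), Csf3r (0.37) and Hoxa10 (0.35). Of all 12 differences 5 were positive and 7 negative, with a median of -0.035. Of neutrophil markers Retnlg was higher (1.28) and Mmp8 lower (-0.65) without overlap. In the other lists, apart from monocytes and macrophages (given below), 4 genes were lower without overlap (3.62% of all genes were). These were Cpa3 (-1.63), Pdgfrb (-1.03, adjusted p = 0.0719), Itgb3 (-0.60) and Cd79b (-0.40), each the 1 such gene of its list. Most differences in their lists were positive: 9 of 10 for mast cells, basophils and eosinophils and 6 of 10 for stroma and endothelium. For megakaryocytes it was 7 of 8, and for B cells 6 of 9.

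Of the 46 measured genes, 6 had a mean signal above the 95th percentile of the negative controls (13.0%), which was also the share among all genes tested (12.7%). Among the 40 receptors these were Nr4a1, Nr2c2 and Rxrb (7.5%), and among the 6 coregulators Ncoa1, Ncoa2 and Ncoa3 (50.0%). Rxrb lay just inside the limit with a mean of 8.12 over the 6 arrays and Med1 just outside it with 7.99. Nr3c1 and Rara came next at 7.89 and 7.86. A stricter reading, above the limit of each array itself on all 6 arrays, left 4 genes: Nr4a1, Nr2c2, Ncoa1 and Ncoa3. At the other end 13 of the 46 had a mean below the mean negative-control median of 4.82, the bile acid receptor gene Nr1h4, the liver receptor homolog Nr5a2 and the coactivator gene Ppargc1a among them. A signal in that range does not show whether a transcript is present.

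**Figure D1:**
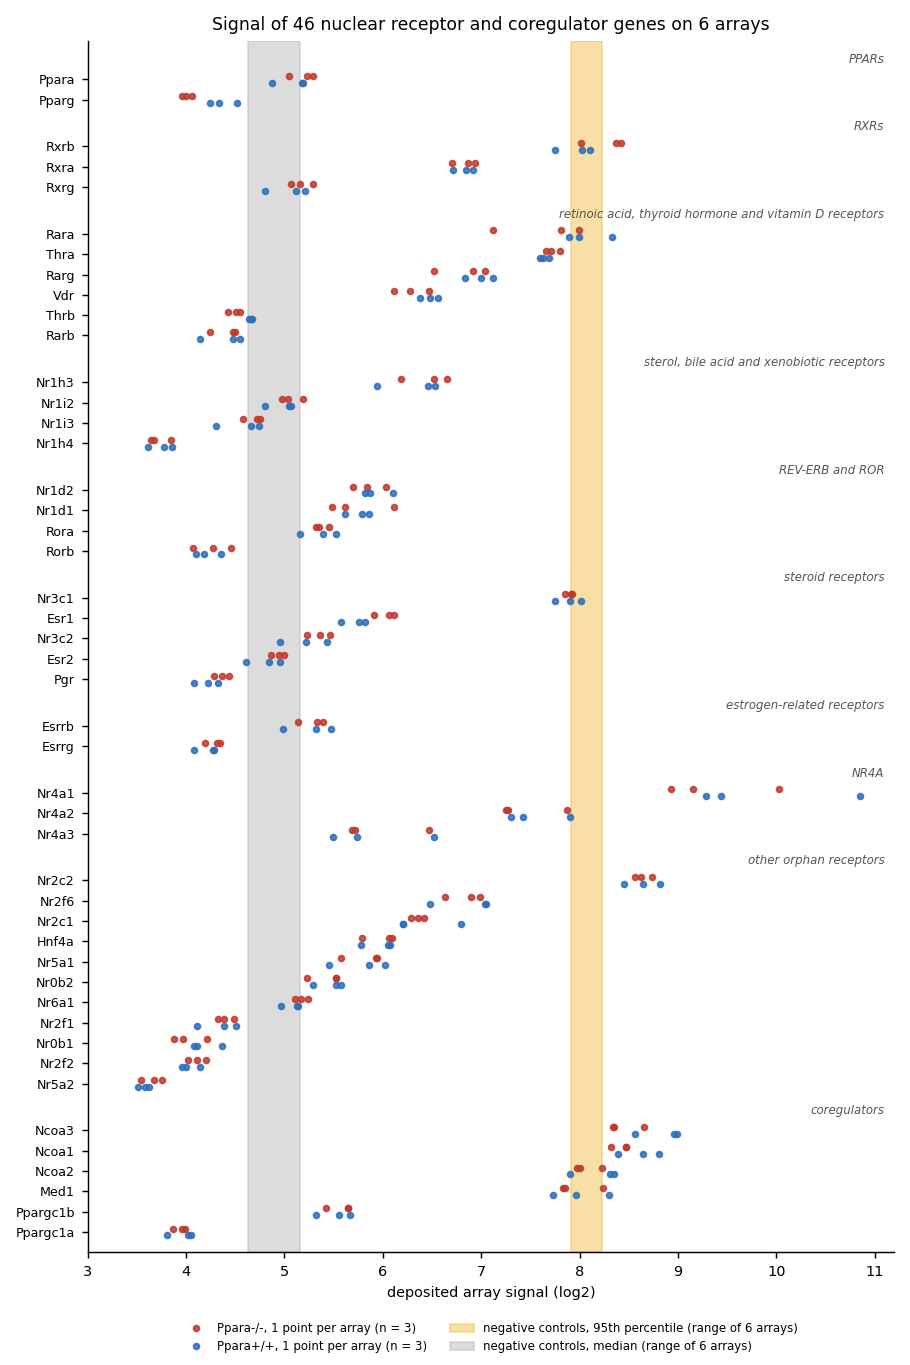
Deposited log2 signal of each of the 46 measured genes (rows, grouped by role) on the 3 Ppara-/- arrays (red) and the 3 Ppara+/+ arrays (blue), 1 point per array. The grey band is the range of the negative-control medians (4.63 to 5.16) and the yellow band that of their 95th percentiles (7.91 to 8.23). Nr4a1, Nr2c2, Ncoa1 and Ncoa3 lie to the right of the yellow band on every array, and most receptors lie to its left.

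None of the 46 genes passed the comparison of Ppara-/- with Ppara+/+ leukemia, which asks whether loss of this receptor went with a change in the RNA of its relatives and partners. In limma, with Benjamini-Hochberg adjustment over all genes, 0 of 46 had an adjusted p under 0.05, against 0.117% of all genes (18 higher and 18 lower, 0.0586% each). At an unadjusted p under 0.05 there were 3 of 46 (6.52%), against 5.74% of all genes. These were Esr1, which was higher in Ppara-/- cells (3.15% of all genes were), and Pparg and Ncoa3, which were lower (2.6% of all genes were). The 3 values of 1 genotype lay wholly outside those of the other in 3 of 46 (6.52%), again near the share over all genes (8.74%). Esr1 did so upward (5.13% of all genes), and Pparg and Thrb downward (3.62% of all genes). All of these shares are close to the background, so the receptors and coregulators did not stand apart from genes at large.

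Differences were small in either direction. Of the 46, 27 were positive and 19 negative, with a median of 0.01 on the log2 scale, against a median of 0.02 over all genes. They ran from -0.49 for Nr4a1 to 0.31 for Esr1. The 6 genes above the limit had a median of -0.16, against -0.02 for all genes above it. In RNA from bulk cells, fewer cells of a type and less RNA per cell cannot be told apart.

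**Figure D2:**
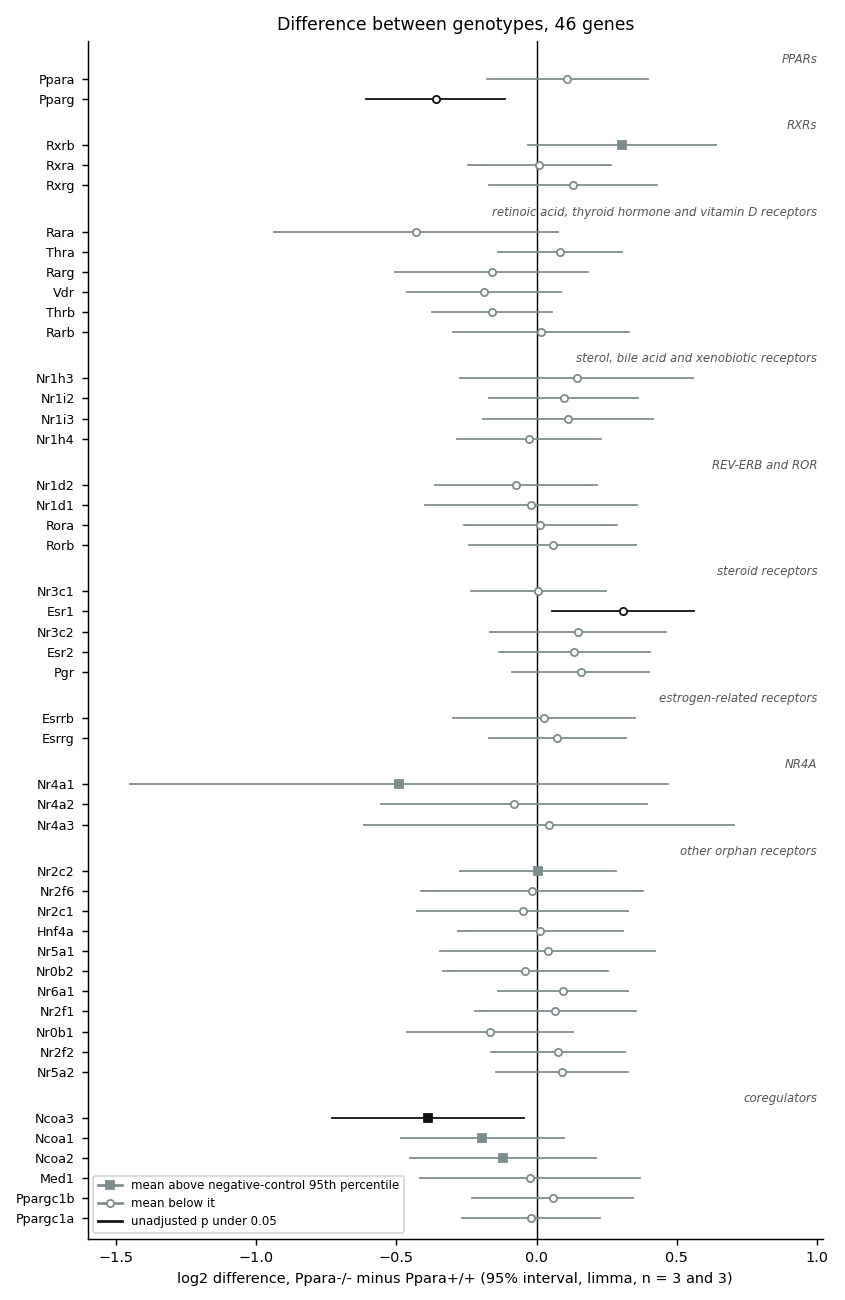
Log2 difference of each measured gene, Ppara-/- minus Ppara+/+, with its 95% interval from limma (3 arrays against 3). Filled squares are the 6 genes whose mean lies above the negative-control 95th percentile, open circles the 40 below it, and black marks the 3 genes at an unadjusted p under 0.05. The interval of Nr4a1 is wide, from -1.45 to 0.47, and all intervals but those of Pparg, Esr1 and Ncoa3 span 0.

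Ppara itself was measured first because it should check the genotype labels. Its signal was 5.29, 5.05 and 5.23 on the Ppara-/- arrays (replicates 1 to 3, the order used throughout), against 4.87, 5.19 and 5.18 on the Ppara+/+ arrays. The genotypes overlapped, Ppara+/+ replicate 1 was the lowest, and all 6 values lay far below the 95th percentile of the controls. The difference was 0.11 (95% interval -0.18 to 0.40, adjusted p = 0.998). Where the probes lie in the gene, and which part of it the disrupted allele still transcribes, is not known here, so the signal does not check the labels.

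Pparg encodes the fat cell and macrophage member of the PPAR family, and it had the lowest p of all the genes described. Its values of 4.06, 3.96 and 4.0 in Ppara-/- cells all lay below the 4.24, 4.34 and 4.52 of Ppara+/+ cells. The difference was -0.36 (95% interval -0.61 to -0.11, a signal ratio of 0.779), with an unadjusted p of 0.0096 and an adjusted p of 0.519 in limma. The unadjusted p stayed under 0.05 in each of the 14 other fits that held the gene, and the adjusted p ran between 0.081 and 1 in them. However, each of its 6 values lay below the negative-control median of its own array.

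Markers of monocytes and macrophages, cells in which Pparg is known to be active, are given beside it. Of 12 measured, 9 differences were negative and 3 positive (Ccr2 0.37, Cd14 0.23 and Mrc1 0.07). In all, 7 of the 12 were lower in Ppara-/- cells without overlap (3.62% of all genes were). In limma 6 were lower at an unadjusted p under 0.05 (2.6% of all genes were). Both shares are larger among the 3897 genes above the limit, of which 228 were lower without overlap and 205 lower at such a p. None of the 12 passed after adjustment, and their median difference was -0.35. The mean over the 12 was 7.55, 7.33 and 7.65 in Ppara-/- arrays, against 8.03, 7.80 and 8.03 in Ppara+/+ arrays, with 7 of the 12 above the limit. The M-CSF receptor gene Csf1r was at 8.54, 7.75 and 8.75 in Ppara-/- cells, against 9.38, 9.03 and 9.44 in Ppara+/+ cells. The part of these cells in the Pparg result was not tested. Of the fat cell markers, Adipoq and Fabp4 lay at 3.37 to 4.0 on all arrays, below every negative-control median, and Plin1 at 5.15 to 5.72.

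RXRs are the obligate partners of PPARs. Rxrb, the RXR found in most tissues, was the 1 of the 3 above the limit, with 8.37, 8.01 and 8.42 in Ppara-/- cells and 7.75, 8.11 and 8.03 in Ppara+/+ cells. Ppara-/- replicates 1 and 3 lay above every Ppara+/+ value, and Ppara-/- replicate 2 did not. The difference of 0.30 (95% interval -0.03 to 0.64) had an unadjusted p of 0.0706 and an adjusted p of 0.942. It was 0.43 (unadjusted p = 0.0160) without Ppara-/- replicate 2, 0.20 (unadjusted p = 0.201) without Ppara+/+ replicate 1, the lowest of the 6, and 0.325 (unadjusted p = 0.0109) without both arrays of high background. The unadjusted p was under 0.05 in 5 of 16 other fits.

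Rxra, the main RXR of the liver, lay between the controls' median and 95th percentile, at 6.87, 6.70 and 6.94 in Ppara-/- cells, against 6.71, 6.85 and 6.92 in Ppara+/+ cells. Its difference of 0.01 had a 95% interval of -0.24 to 0.26. Rxrg, the RXR of muscle and brain, stayed within or just above the range of the negative-control medians, at 5.29, 5.07 and 5.16 in Ppara-/- cells, against 4.80, 5.12 and 5.21 in Ppara+/+ cells, with a difference of 0.13 (95% interval -0.17 to 0.43). All 3 RXR differences were positive, and for Rxrb and Rxrg the lowest array was Ppara+/+ replicate 1.

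**Figure D3:**
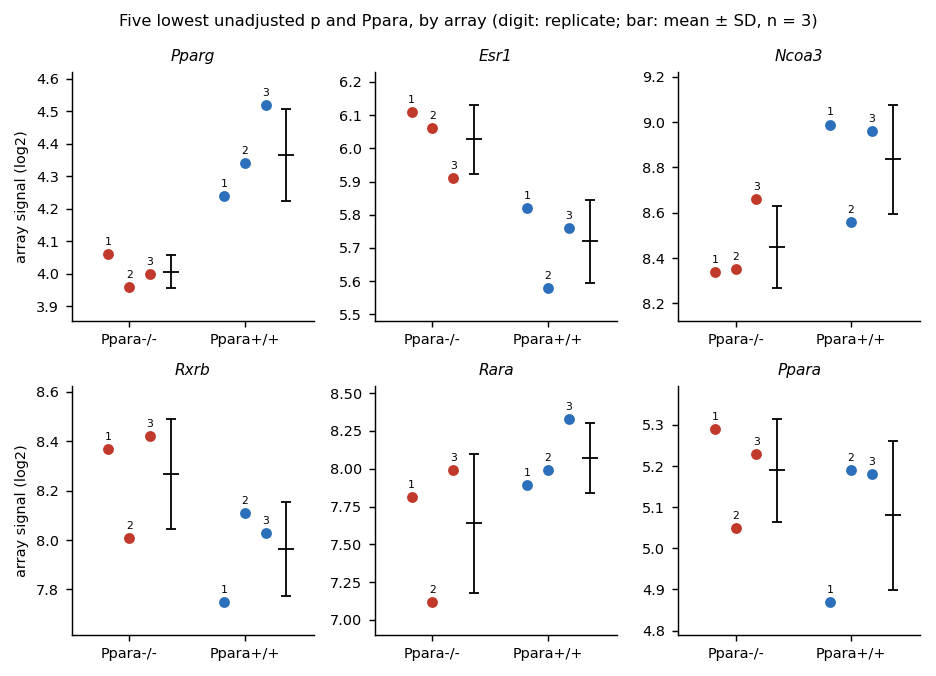
Log2 signal by array for the 5 genes with the lowest unadjusted p (Pparg, Esr1, Ncoa3, Rxrb and Rara) and for Ppara, with Ppara-/- on the left and Ppara+/+ on the right of each panel. Digits give the replicate and bars the mean ± SD (n = 3). Only in the panels of Pparg and Esr1 do the genotypes not overlap, and in that of Rara a single array, Ppara-/- replicate 2 at 7.12, lies apart.

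Among the receptors for retinoic acid, thyroid hormone and vitamin D, 4 of 6 differences were negative, and none had an unadjusted p under 0.05. Rara, the retinoic acid receptor of granulocyte maturation, had 7.81, 7.12 and 7.99 in Ppara-/- cells and 7.89, 7.99 and 8.33 in Ppara+/+ cells. The genotypes overlapped, and the difference of -0.43 (95% interval -0.94 to 0.08, unadjusted p = 0.0868, adjusted p = 0.980) varied with the arrays used. It was -0.17 (unadjusted p = 0.316) without Ppara-/- replicate 2, -0.605 (unadjusted p = 0.0264) without Ppara-/- replicate 3 and -0.57 (unadjusted p = 0.0207) with each array's negative-control median as a covariate. In 4 of 15 other fits the unadjusted p was under 0.05. Rarg, known for its part in stem cell renewal, had its lowest value on the same array, 6.52 among a range of 6.52 to 7.12 (difference -0.16). Rarb, itself a retinoic acid target in many cells, lay at 4.14 to 4.55, below the negative-control median on all arrays.

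Vdr, the receptor through which vitamin D favours monocyte maturation, was also lowest on Ppara-/- replicate 2. It had 6.28, 6.11 and 6.47 in Ppara-/- cells and 6.48, 6.38 and 6.56 in Ppara+/+ cells, with a difference of -0.19 (95% interval -0.46 to 0.09, unadjusted p = 0.158). Thrb, a thyroid hormone receptor of liver and the sensory organs, had 4.55, 4.51 and 4.43, all below the 4.64, 4.67 and 4.66 of Ppara+/+ cells. That separation was narrow, with a difference of -0.16 (unadjusted p = 0.124), and no value lay above the negative-control median of its array. Thra, the thyroid hormone receptor gene of heart, bone and brain, had 7.60 to 7.80 over all arrays and a difference of 0.08. The spans of Thra and the clock gene Nr1d1 overlap in the RefSeq annotation of chromosome 11, so their signals may not be separate, and where the probes lie is not known here.

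The sterol, bile acid and xenobiotic receptors lay low, with means of 3.74 for Nr1h4, 4.63 for Nr1i3, 5.02 for Nr1i2 and 6.38 for Nr1h3. Nr1h4 encodes FXR, the bile acid receptor of liver and gut, and Nr1i2 and Nr1i3 encode PXR and CAR, which induce drug metabolism. Nr1h3 encodes LXR alpha, a sensor of oxysterols in macrophages. Their differences lay between -0.03 and 0.14, and all 4 had their lowest value on Ppara+/+ replicate 1. The REV-ERB repressors Nr1d1 and Nr1d2 and the ROR activators Rora and Rorb, which act on the same sites in the circadian clock, differed by -0.07 to 0.06. Rora and Rorb had more than 1 probe set, and their highest means, used here, were 5.37 and 4.24. Both probe sets used are named as unmapped in their identifiers. The others had means of 4.45 and 3.59 for Rora and 3.42 for Rorb, below the mean negative-control median of 4.82.

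Steroid receptors had positive differences in 5 of 5, from 0.01 to 0.31, with a median of 0.15, and none passed. Esr1, which encodes estrogen receptor alpha, had 6.11, 6.06 and 5.91 in Ppara-/- cells, all above the 5.82, 5.58 and 5.76 of Ppara+/+ cells. The difference was 0.31 (95% interval 0.05 to 0.56, a signal ratio of 1.24), with an unadjusted p of 0.0231 and an adjusted p of 0.731 in limma. Its unadjusted p was under 0.05 in 10 of 15 other fits. All 6 values lay above the negative-control medians and far below the 95th percentiles.

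The progesterone receptor gene Pgr, an estrogen target in the uterus, had 4.37, 4.29 and 4.44 in Ppara-/- cells, against 4.08, 4.33 and 4.22 in Ppara+/+ cells, all under the controls' medians (difference 0.16, unadjusted p = 0.180). Esr2, which encodes estrogen receptor beta, and the mineralocorticoid receptor gene Nr3c2 differed by 0.13 and 0.15. Pgr, Esr2 and Nr3c2 were each lowest on Ppara+/+ replicate 1. The glucocorticoid receptor gene Nr3c1, through which dexamethasone acts in blood cells, had 7.75 to 8.01 on the 6 arrays. Its difference of 0.01 had a 95% interval of -0.23 to 0.25. Of the estrogen-related receptors, which share energy metabolism targets with PPARA through PGC-1, Esrrb and Esrrg differed by 0.03 and 0.07.

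The NR4A receptors are immediate early genes: signals that raise calcium or cyclic AMP switch them on within minutes, in part through CREB at TGACG elements near the start site. Their promoters are shown because all 3 genes were highest on replicate 3 of both genotypes, as given next, which was seen before this choice. A link between TGACG and the array signals was not tested. The windows are the 250 bases upstream of each RefSeq start in build GRCm38.p6, printed 5′ to 3′ along the gene, at chr15:101266596-101266845 (plus strand, Nr4a1), chr2:57124004-57124253 (minus strand, Nr4a2) and chr4:48045055-48045304 (plus strand, Nr4a3). Capitals mark TGACG and its reverse complement CGTCA.
Nr4a1: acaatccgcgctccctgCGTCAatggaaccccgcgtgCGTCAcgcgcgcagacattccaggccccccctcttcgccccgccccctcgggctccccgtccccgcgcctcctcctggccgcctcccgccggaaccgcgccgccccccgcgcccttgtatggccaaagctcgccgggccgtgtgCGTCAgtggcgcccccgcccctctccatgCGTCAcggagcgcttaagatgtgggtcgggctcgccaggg
Nr4a2: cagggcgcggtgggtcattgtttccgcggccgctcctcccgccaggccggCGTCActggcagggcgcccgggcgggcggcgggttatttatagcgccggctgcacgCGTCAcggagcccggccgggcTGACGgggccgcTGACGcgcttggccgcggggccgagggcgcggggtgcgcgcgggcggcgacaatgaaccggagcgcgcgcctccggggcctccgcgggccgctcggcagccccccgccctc
Nr4a3: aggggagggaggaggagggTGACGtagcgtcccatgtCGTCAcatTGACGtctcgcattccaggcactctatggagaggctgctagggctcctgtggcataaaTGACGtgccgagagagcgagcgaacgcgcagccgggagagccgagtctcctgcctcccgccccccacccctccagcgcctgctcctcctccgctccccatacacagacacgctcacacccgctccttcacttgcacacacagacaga

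Each window held 4 matches to TGACG on either strand. In Nr4a1 all 4 were on the reverse strand and part of the longer TGACGCA, which contains TGACG and occurred in 1.75% of all windows. Nr4a2 had 2 on each strand, and Nr4a3 had 3 forward and 1 reverse. At least 1 TGACG stood in 17.8% of 32851 RefSeq windows of this length, in 13 of 66 windows of the 44 receptor and coregulator genes that had one (19.7%), and in 11 of 20 windows of the immediate early list. The receptor hexamer AGGTCA stood in 11 of the 66 (16.7%), against 14% of all windows. Its direct repeat with 1 base of spacing, which PPAR and RXR prefer, stood in 0 of 66, against 0.0335%. That exact repeat is so rare, in 11 of 32851 windows, that 0 of 66 does not set these genes apart. The palindrome TGACGTCA, which also contains TGACG, stood in 0 of the 66 and in 1.55% of all windows. A match describes letters only.

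Nr4a1 had the largest difference in size of the 46 genes, and also the widest spread within each genotype. Its signal was 9.15, 8.93 and 10.03 in Ppara-/- cells, against 9.29, 9.44 and 10.85 in Ppara+/+ cells. All 6 lay above the 95th percentile of their own array, the genotypes overlapped, and replicate 3 was the highest in both. The difference of -0.49 (95% interval -1.45 to 0.47, unadjusted p = 0.275, adjusted p = 0.998) was 0.005 if Ppara+/+ replicate 3 was left out and -0.82 if Ppara-/- replicate 3 was, so its size depended on single arrays.

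The other two NR4A genes, which were singled out after their values were seen, were also highest on replicate 3 in both genotypes. Nr4a2, a factor of dopamine neurons that is also induced in myeloid cells, had 7.27, 7.25 and 7.87 in Ppara-/- cells, against 7.43, 7.30 and 7.90 in Ppara+/+ cells (difference -0.08). Nr4a3 had 5.72, 5.69 and 6.47 in Ppara-/- cells, against 5.49, 5.74 and 6.52 in Ppara+/+ cells (difference 0.04). The order of the other arrays differed between the 3 genes. Replicate 3 was the highest within both genotypes in 3 of 3 NR4A genes, compared with 11 of 46 receptors and coregulators (23.9%) and 14.1% of all genes. The labels do not tie the replicate numbers across genotypes.

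Some other immediate early genes had the same highest arrays. Replicate 3 was the highest in both genotypes in 8 of 19 (42.1%), against 14.1% of all genes and 7.26% of those above the limit. The pattern was not particular to this list, as 8 of 18 measured clock genes (44.4%) and 7 of 21 glucocorticoid receptor targets and chaperones (33.3%) had it too. Atf3 showed the pattern (8.91, 8.52 and 9.90 in Ppara-/- cells, against 9.06, 8.92 and 9.83 in Ppara+/+ cells). Fos, at 11.82, 11.93 and 11.92 in Ppara-/- cells, against 12.20, 11.89 and 12.22 in Ppara+/+ cells, did not show it. The list mean was 10.12, 10.09 and 10.37 in Ppara-/- cells, against 10.04, 9.92 and 10.31 in Ppara+/+ cells. Between genotypes none of the 19 passed, and the median was 0.10. At an unadjusted p under 0.05 in limma 3 were higher (3.15% of all genes were) and 1 lower (2.6%). Of the 19, 17 lay above the limit, where 12.7% of all genes had such a p in either direction. Dusp2, a nuclear MAP kinase phosphatase, was at 9.65, 9.56 and 9.64 in Ppara-/- cells, against 9.01, 9.09 and 9.25 in Ppara+/+ cells (difference 0.50, adjusted p = 0.207). Such genes also respond to the handling of cells, and the part of that list in the NR4A levels was not tested.

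**Figure D4:**
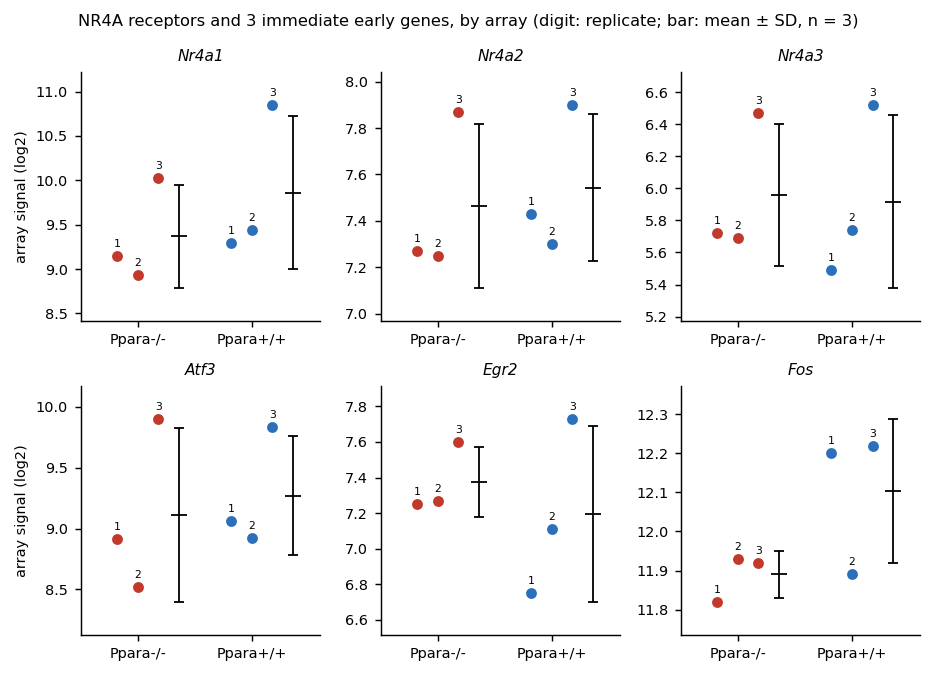
Log2 signal by array of Nr4a1, Nr4a2 and Nr4a3 and of the immediate early genes Atf3, Egr2 and Fos, with Ppara-/- on the left and Ppara+/+ on the right of each panel, digits for the replicate and bars for the mean ± SD (n = 3). Replicate 3 is the highest within each genotype in all panels but that of Fos. In the whole immediate early list this held for 8 of 19 genes, so the 3 shown do not stand for the list.

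Of 11 other orphan receptors only Nr2c2 had a mean above the limit. Nr2c2 encodes TR4, a repressor of embryonic globin genes that can also occupy PPAR elements. It had 8.56, 8.74 and 8.62 in Ppara-/- cells and 8.82, 8.45 and 8.64 in Ppara+/+ cells, a difference of 0.00 with a 95% interval of -0.27 to 0.28. Its partner gene Nr2c1 (TR2) had 6.21 to 6.80 and differed by -0.05.

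Nr0b1 encodes DAX1, a receptor without a DNA-binding domain that represses steroid synthesis. It had 4.21, 3.88 and 3.97 in Ppara-/- cells, against 4.08, 4.11 and 4.37 in Ppara+/+ cells, below every negative-control median (difference -0.17, unadjusted p = 0.231). The other 9 differed by -0.05 to 0.09. Nr2f6, a repressor of cytokine genes in lymphocytes that is also studied in leukemia, had a mean of 6.85, and Hnf4a, a liver and gut receptor, one of 5.97. The factor of adrenal and gonad, Nr5a1, and the germ cell factor Nr6a1 had means of 5.80 and 5.13, and Nr0b2, which encodes the bile acid induced repressor SHP, one of 5.45. The COUP-TF genes Nr2f1 and Nr2f2, which act in neural and vascular development, and Nr5a2 lay below the mean negative-control median.

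Coregulators had the highest share of genes above the limit and negative differences in 5 of 6. Ncoa3 (SRC-3, amplified in some breast cancers), a histone acetyltransferase coactivator, had 8.34, 8.35 and 8.66 in Ppara-/- cells and 8.99, 8.56 and 8.96 in Ppara+/+ cells. Only Ppara-/- replicate 3 reached above a Ppara+/+ value. The difference was -0.39 (95% interval -0.73 to -0.05, a signal ratio of 0.765), with an unadjusted p of 0.0306 and an adjusted p of 0.787. In 8 of 16 other fits its unadjusted p was under 0.05. Without Ppara+/+ replicate 1, its highest array, the difference was -0.31 (unadjusted p = 0.0870), and without both arrays of high background it was -0.26 (unadjusted p = 0.203).

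The related coactivators Ncoa1 and Ncoa2 differed less. Ncoa1 (SRC-1) had 8.32, 8.47 and 8.47 in Ppara-/- cells, against 8.81, 8.39 and 8.64 in Ppara+/+ cells, a difference of -0.19 (95% interval -0.48 to 0.10). Ncoa2 (TIF2, the partner of MOZ in a human leukemia fusion) had 8.00, 8.23 and 7.97 in Ppara-/- cells, against 8.35, 7.90 and 8.31 in Ppara+/+ cells, a difference of -0.12 (95% interval -0.45 to 0.21). Med1, which lay just under the limit and was singled out for that, had 7.85, 8.24 and 7.83 in Ppara-/- cells, against 8.30, 7.73 and 7.96 in Ppara+/+ cells (difference -0.02). Ppargc1a and Ppargc1b, the PGC-1 coactivators of mitochondrial genes, had means of 3.95 and 5.55 and differed by -0.02 and 0.06.

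Many of these genes had their lowest or highest value on the same arrays, as did many genes at large. Of the 40 genes below the limit, 33 (82.5%) had their lowest value on Ppara-/- replicate 2 or Ppara+/+ replicate 1, the 2 arrays of high background, against 62.4% of all genes below it. Ppara+/+ replicate 1 alone was the lowest for 23 (57.5%), against 47.6%. The opposite held above the limit: 4 of 6 genes (Ncoa1, Ncoa2, Ncoa3 and Nr2c2) were highest on Ppara+/+ replicate 1, against 43.1% of all genes above it. The median deviation of the 40 dim genes from their own means was 0.08, -0.08 and 0.09 on the Ppara-/- arrays and -0.14, 0.04 and 0.07 on the Ppara+/+ arrays. Leaving out Ppara-/- replicate 2 gave the 46 genes a median difference of 0.10, and leaving out Ppara+/+ replicate 1 gave -0.04. With the negative-control median of each array as a covariate, Rxrb differed by 0.19 (unadjusted p = 0.0375), Ncoa3 by -0.35 (unadjusted p = 0.0563) and Esr1 by 0.34 (unadjusted p = 0.0078), none past the adjusted threshold in limma.

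**Figure D5:**
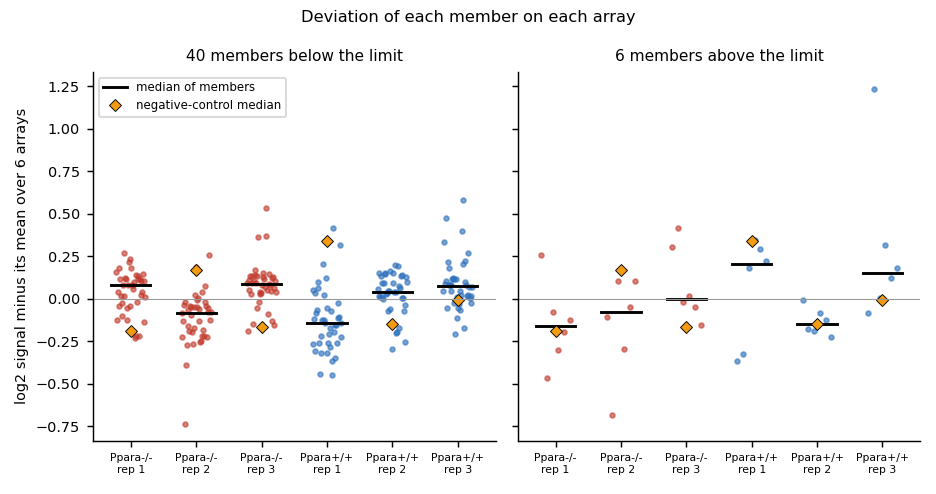
Log2 signal of each gene minus its own mean over the 6 arrays, for the 40 genes below the negative-control 95th percentile (left) and the 6 above it (right), with Ppara-/- in red and Ppara+/+ in blue. Black bars are medians, and orange diamonds the negative-control median of each array minus its mean. On the left the medians of Ppara-/- replicate 2 (-0.08) and Ppara+/+ replicate 1 (-0.14) lie below 0 where the diamonds lie above it.

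Genes that these receptors regulate were read from lists that were also drawn up with earlier results of these data known, so the genes named from them are a description. For comparison with the list counts, 3.15% of all genes were higher and 2.6% lower in Ppara-/- cells at an unadjusted p under 0.05 in limma. Of 40 PPARA target genes, 35 were measured and 5 lay above the limit. None passed, with 1 higher and 1 lower at an unadjusted p under 0.05 and a median of -0.00. Lpl, a lipase that frees fatty acids from lipoproteins, had 5.03, 4.85 and 5.16 in Ppara-/- cells, all below the 6.18, 5.74 and 6.26 of Ppara+/+ cells (adjusted p = 0.0708). Lpl is also a product of macrophages. Angptl4, an inhibitor of that lipase, ran the other way, at 6.38, 6.27 and 6.15 in Ppara-/- cells, against 5.97, 5.90 and 5.88 in Ppara+/+ cells (adjusted p = 0.495). The oxidation enzyme gene Hadha, above the limit, differed by -0.32 with overlap.

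None of 17 measured genes of retinoid metabolism and RAR response passed, 14 differences were positive and the median was 0.05, with 1 gene at an unadjusted p under 0.05. Tgm2, a transglutaminase that retinoic acid induces in myeloid cells, had 7.14, 7.10 and 6.87 in Ppara-/- cells and 5.89, 6.18 and 6.28 in Ppara+/+ cells, with no overlap (difference 0.92, adjusted p = 0.0645). Dhrs3, which turns retinal back to retinol, had 8.70, 8.43 and 8.63 in Ppara-/- cells, against 8.25, 8.20 and 8.5 in Ppara+/+ cells (difference 0.27, adjusted p = 0.905). On 14 of the 17 genes Ppara+/+ replicate 1 was the lowest array.

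The list of glucocorticoid receptor targets and chaperones held the 1 regulated gene that passed. Of 21 measured, 11 lay above the limit, and Mt2, a metal-binding metallothionein that glucocorticoids, zinc and stress induce, rose to 9.24, 9.28 and 9.47 in Ppara-/- cells, against 7.23, 7.53 and 7.78 in Ppara+/+ cells. Its difference was 1.82 (limma, adjusted p = 0.0057), and it passed in 15 of 16 other fits, the exception being that without the 2 arrays of high background (adjusted p = 0.0900). The list had 12 positive and 9 negative differences, with a median of 0.04. Anxa1, an anti-inflammatory annexin, had 9.56, 9.99 and 9.86 in Ppara-/- cells, against 10.49, 10.19 and 10.51 in Ppara+/+ cells (difference -0.59, adjusted p = 0.302).

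LXR targets (14 measured, median -0.02) and genes of vitamin D and thyroid hormone metabolism (12 measured, median 0.01) had no member past the threshold and 1 each at an unadjusted p under 0.05. Pltp, a phospholipid transfer protein that LXR induces, had 6.12, 5.87 and 6.11 in Ppara-/- cells, against 6.29, 6.53 and 6.22 in Ppara+/+ cells (difference -0.31, adjusted p = 0.804 in limma). Dio2, which activates thyroid hormone, had 6.80, 7.22 and 6.54 in Ppara-/- cells, against 6.49, 6.10 and 6.29 in Ppara+/+ cells (difference 0.56, adjusted p = 0.600). Of 18 measured clock genes none passed, with a median of 0.03 and 1 at an unadjusted p under 0.05. The clock kinase Csnk1e had 7.88, 7.79 and 8.05 in Ppara-/- cells, against 8.15, 8.26 and 8.45 in Ppara+/+ cells (difference -0.38, adjusted p = 0.572).

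Of the complexes that receptors recruit, no member passed. For corepressors 8 of 21 lay above the limit, for coactivators 13 of 21 and for Mediator 9 of 30, and the medians were -0.03, -0.02 and -0.06. No corepressor had an unadjusted p under 0.05 in limma, which 5.74% of all genes had and 12.7% of those above the limit. Among coactivators 1 was higher at that level, the acetyltransferase Kat2a (difference 0.33), and 2 were lower, the methyltransferase Carm1 (-0.31), which binds NCOA proteins, and Zmiz1 (-0.26). In Mediator Med22 was higher (0.27), and Med19 (-0.31) and Med29 (-0.24) were lower. Their adjusted p-values ran between 0.511 and 0.822. Of 6 further nuclear receptor genes outside the 50, 3 were measured, all below the mean negative-control median, with differences of 0.01 to 0.09.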

How the data were processed

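RNA was measured on 6 arrays, 3 Ppara-/- and 3 Ppara+/+, grouped by the sample titles. Per probe set and array, 1 log2 signal was deposited. Per the submitters' processing notes RMA and limma were used, without version; RMA corrects background and quantile normalizes, which would remove a shift common to most genes. No array annotation or genome build is given in the sources used here, and the probe set identifiers differ in form from those of the array model named. Of 72688 rows, 31258 had 1 gene, 1492 several and 33206 none, beside 6732 control rows (5222 negative). Symbols were updated and promoter windows taken from RefSeq, GRCm38.p6. The row with the highest mean stood for a gene (441 genes had more than 1).

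Genotypes were compared with limma 3.58.1 (R 4.3.3; lmFit, eBayes, two-sided), adjusted by Benjamini-Hochberg over 30702 genes, at a threshold of 0.05. Intervals and p-values come from that fit where no other is stated. The fit was tested on simulated data. Python 3.11.15 with pandas 2.3.3 made the tables, and matplotlib 3.10.9 drew the plots. The members and lists were chosen with earlier results of these data known. Values by array were given for the PPAR and RXR genes and for members above the negative-control 95th percentile. They were also given for the 10 members with the lowest p, and from each list for genes past the threshold and up to 3 with the lowest p. Marker genes, Nr4a2, Nr4a3, Med1, Atf3, Egr2 and Fos were named after their values were seen. Alternatives were other priors, normalizations, filters, probe set rules, array weights, a replicate block, a background covariate and arrays left out.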

Additional observations from a re-analysis of the deposited data

How the results depend on the processing

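In all 16 alternative fits 0 of the receptors and coregulators were called, and the lowest adjusted p of any was 0.081 (Pparg, array weights). At an unadjusted p under 0.05 there were 3 in the fit of all arrays, 6 with array weights and 0 among genes above the negative-control 95th percentile, where 6 of the 46 remained to be fitted; with 1 array left out there were 1 (without Ppara-/- replicate 1) to 4. Their median difference of 0.01 became -0.16 under that filter, by its construction, and -0.04 to 0.10 with 1 array left out. The count above the limit was 6, 11 at the 90th percentile of the controls, 0 at the 99th, and 5 to 6 with 1 array left out. Differences near 0 changed sign. That of Rxra was -0.0067 with median centring, -0.013 with array weights, -0.044 with the background covariate and -0.048 to 0.078 with 1 array left out. That of Nr2c2 was -0.013 with median centring and -0.09 to 0.095 with 1 array left out. Nr4a1 had the largest difference in size, -0.49, and it changed sign in 1 of 16 fits, to 0.005 without Ppara+/+ replicate 3. It was as low as -0.82 with 1 array left out. In limma with array weights it was -0.93 (unadjusted p = 0.0341, adjusted p = 0.335), and with the replicate block -0.49 (unadjusted p = 0.0181). The adjusted p of Nr4a1 was 0.335 or higher in all 16. Ppara stayed positive (0.005 to 0.18). Over all genes 36 were called, 69 with a trended and robust prior, 13 with median centring, 22 with quantile normalization, 1 above the 95th percentile, 277 with array weights, and 6 (without Ppara-/- replicate 1) to 36 with 1 array left out, with 11 and 15 without Ppara-/- replicates 2 and 3 and 13 without Ppara+/+ replicate 3. Without the 2 arrays of highest background limma called 0 genes, with 2945 at an unadjusted p under 0.05. Same-numbered arrays of the genotypes deviated with correlations of -0.33, -0.47 and 0.11 over all genes. The highest correlation, 0.50, was between the 2 arrays of high background, Ppara-/- replicate 2 and Ppara+/+ replicate 1. Deviations from a mean of 3 arrays depend on each other, so these correlations cannot decide whether the numbers pair the arrays. A fit with the replicate block called 12 genes and 0 of the members. The cause of these shifts was not tested. With signals this close to background, a change in most of the receptors could be missed at this number of arrays.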

Other observations

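Ppard, the third PPAR gene, and Esrra, the estrogen-related receptor that works with PGC-1, were on probe sets annotated to 2 genes, so these signals cannot be assigned to them alone. The probe set of Ppard and 1810013A23Rik had 8.23, 8.06 and 8.14 in Ppara-/- cells, against 8.05, 8.12 and 8.32 in Ppara+/+ cells, and lay above the 95th percentile of its own array on 4 of 6 arrays. Its means were 8.14 ± 0.09 and 8.16 ± 0.14 (SD, n = 3 each). The probe set of Esrra and Mir6990 had 7.57, 7.33 and 7.44 in Ppara-/- cells, against 7.07, 7.43 and 7.40 in Ppara+/+ cells, and lay above it on 0 arrays. Its means were 7.45 ± 0.12 and 7.30 ± 0.20 (SD, n = 3 each), with Ppara+/+ replicate 1 again the lowest.

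Several of the receptor genes are neighbours in the RefSeq annotation. On chromosome 14 no protein-coding gene lies between Rarb and Thrb, and 1 lies between Thrb and Nr1d2. On chromosome 2 none lies between Nr5a1 and Nr6a1, and on chromosome 11 there are 5 between Nr1d1 and Rara. Rarb differed by 0.02, Thrb by -0.16 and Nr1d2 by -0.07, and Nr5a1 and Nr6a1 by 0.04 and 0.09.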
